A study of Mus musculus with 3 samples.

Results

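Histone genes were described in 3 untreated mammary tumours of the mouse strain FVB-MMTV-Neu. Members were all gene symbols of the replication-dependent histone loci (Hist1 to Hist4) and of the H2af, H3f3 and H1f variant histones. These were 86 of 47480 symbols, of which 69 were cluster genes and 17 were variants, and every member was found in the mouse annotation GENCODE M21 (GRCm38, the assembly also called mm10). In this strain the mouse mammary tumour virus promoter, active in mammary epithelium, drives the Neu (Erbb2) oncogene. All 3 tumours were grown orthotopically in syngeneic hosts to a diameter of 5 mm and left for a further 7 days without treatment, so the study has 1 group and no control tissue. The series' design text speaks only of tumours from untreated MMTV-Neu mice, and whether the tumours came from separate donors is not stated. They are numbered 1 to 3 in order of deposition.

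Histones package DNA into nucleosomes. Cells need new core histones and linker histone H1 mainly in S phase, and these come from clustered genes without introns. Their mRNA is the only class of animal mRNA that normally ends in a conserved stem-loop instead of a poly(A) tail. The stem-loop is bound by SLBP, and the mRNA is degraded when replication stops. Variant histones replace the canonical ones outside S phase or at special sites. Many of their genes have introns, and most make polyadenylated mRNA. Of the 17 variants here, 9 have a single annotated exon. Some cluster genes also make polyadenylated transcripts, chiefly in cells that have left the cycle. The libraries here were made with an mRNA kit, which selects RNA by its poly(A) tail.

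The stem-loop is shown first, because it is the sequence that separates the 2 kinds of histone mRNA. The lines give the annotated transcript of the member with the highest mean share of unscaled library counts in each family among those that hold the motif, with the stem-loop in capitals and 5 flanking bases on each side. H2afx is added because its stem-loop differs slightly from the others.
Hist1h1c (linker histone H1), chr13:23739507-23739532, plus strand: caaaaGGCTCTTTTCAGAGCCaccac
Hist2h2aa2 (H2A), chr3:96239779-96239804, minus strand: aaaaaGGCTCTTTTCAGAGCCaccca
Hist3h2ba (H2B), chr11:58949344-58949369, plus strand: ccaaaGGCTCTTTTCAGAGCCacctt
Hist2h3c2 (H3), chr3:96238480-96238505, minus strand: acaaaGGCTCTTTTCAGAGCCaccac
Hist1h4h (H4), chr13:23531453-23531478, plus strand: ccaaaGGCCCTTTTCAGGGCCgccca
H2afx (variant H2A), chr9:44335235-44335260, plus strand: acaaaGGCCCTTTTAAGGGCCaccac

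The conserved 16-base stem-loop motif, with the middle base pair of the stem left free, was searched on the transcript strand after the stop codon and was present in 33 of the 52 cluster genes with at least 16 annotated bases there. It was present in 0 of 12 variants. Of 22500 coding genes in the annotation, 34 (0.151%) held it, and the single gene among these that is not a member was H2bfm, with 0 counts in all tumours. The form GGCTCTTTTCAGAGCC was found in 26 cluster genes of the H1, H2A, H2B and H3 families, and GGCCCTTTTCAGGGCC in 7 genes, all of them H4. The motif lay 25 to 59 bases after the stop codon. A looser form of the motif, with further bases of stem and loop left free, matched 46 of the 52 cluster genes and, of the variants, H2afx alone, against 0.898% of coding genes. H2afx is known for an mRNA that occurs both with the stem-loop and with a poly(A) tail.

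The poly(A) signal AATAAA is shown for the other kind of transcript end, in capitals with 8 flanking bases on each side. The last 2 lines are cluster genes that have it as well.
H3f3b, chr11:116021991-116022012, minus strand: gccttacaAATAAActagtaag
H2afz, chr3:137866794-137866815, plus strand: ataagctcAATAAAggtcatat
H2afj, chr6:136810043-136810064, plus strand: aaaggacaAATAAAgaatatat
Hist1h1c, chr13:23740334-23740355, plus strand: atgcttctAATAAAaagcgttt
Hist2h2be, chr3:96223709-96223730, plus strand: ttattattAATAAAgttaccga

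AATAAA stood in the last 50 bases of an annotated transcript in 10 of the 12 variants with at least 16 bases after the stop codon (not in H2afx or H1fnt) and in 15 of the 52 such cluster genes. Of all coding genes, 65.0% had it in a coding transcript. In Hist1h1c the annotated transcript holds both features. Its stem-loop begins 25 bases after the stop codon and the AATAAA 855 bases after it.

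Variants outweighed cluster genes in every tumour, and least so in tumours 2 and 3. The 17 variants together had 138553, 23640 and 43780 estimated counts in tumours 1, 2 and 3, and the 69 cluster genes 2661, 1647 and 2409. As counts per 1000000 of the scaled library total (CPM), the variants were at 2003, 2938 and 2782 CPM, a mean of 2574 ± 501 (SD, n = 3). The cluster genes were at 38.5, 205 and 153 CPM, a mean of 132 ± 85.2. Tumour 1 was the lowest in both classes, by a wider margin in the cluster genes, but with library totals alone it was the highest in the variants. The variants exceeded the cluster genes 52.1-fold, 14.4-fold and 18.2-fold within the 3 libraries, a log2 ratio of 5.70, 3.84 and 4.18 with a mean of 4.58 ± 0.99 (SD, n = 3) and of 4.01 without tumour 1. This ratio is taken within a library and does not depend on the scaling between libraries. Per kilobase of the longest annotated transcript the log2 ratio was 4.83, 2.38 and 2.79, with a mean of 3.34 ± 1.31. No p-value is given, because the members were chosen with results of these data known.

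The summed cluster level was 5.33 times as high in tumour 2 as in tumour 1 and 3.98 times in tumour 3. With library totals in place of TMM scaling (trimmed mean of M-values, the main scaling) the cluster genes were at 56.1, 145 and 140 CPM, with tumour 1 again lowest, and the variants at 2920, 2076 and 2553 CPM, with tumour 1 highest. Library totals moved the median log2 difference of all genes in tumour 1 by 0.85, so single values under that scaling are read against this shift. Tumours 2 and 3 differed 1.34-fold in summed cluster genes and 1.06-fold in variants. Their file headers carry the same sequencing lane number, 5, and that of tumour 1 carries 1. A lane number alone does not show a shared run. Lane number and tumour 1 cannot be told apart. In bulk tissue, fewer cells of a type and less RNA per cell cannot be told apart either.

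**Figure D1:**
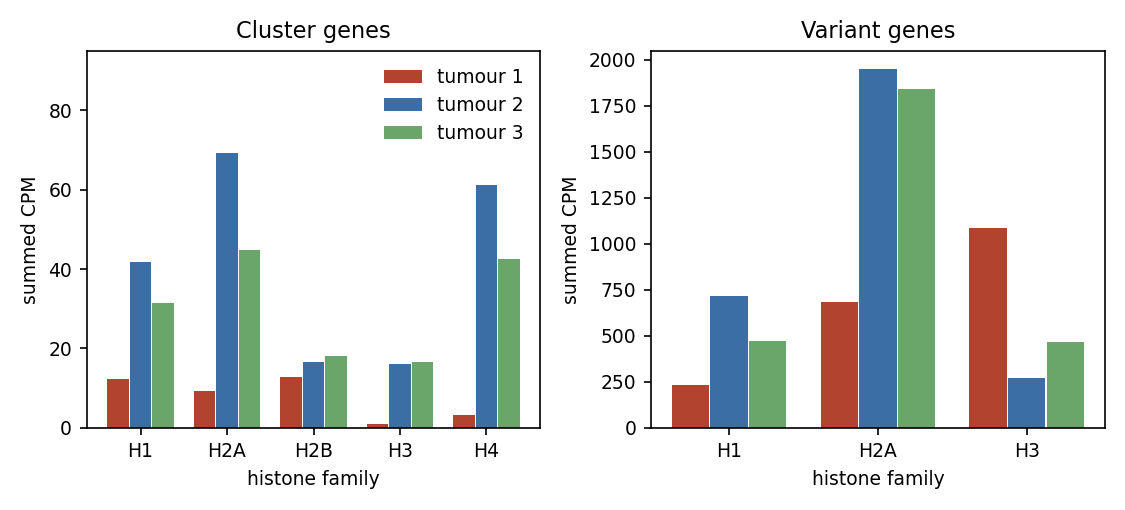
Summed CPM of cluster genes (left) and variant genes (right) by histone family, with bars for tumours 1, 2 and 3 on linear axes that start at 0 and differ in scale. Among the cluster genes tumour 1 has the lowest bar in each family, from 12.7 CPM in H2B to 0.954 CPM in H3, whereas among the variants it has the highest H3 bar, at 1085 CPM.

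The families of cluster genes were not low in tumour 1 to the same degree. H4 (13 genes), which has no variant among the members, was at 3.27, 61.1 and 42.5 CPM in tumours 1, 2 and 3. The 12 H3 genes were at 0.954, 16.2 and 16.5 CPM, and the 20 H2A genes at 9.32, 69.2 and 44.9 CPM. The 6 linker H1 genes were at 12.2, 41.9 and 31.3 CPM. H2B (18 genes) differed least, at 12.7, 16.7 and 18.0 CPM. With library totals H2B was highest in tumour 1 instead, at 18.6 against 11.7 and 16.4 CPM, while the other 4 families were still lowest there. Of the 883 H2B counts in tumour 1, 318 were of Hist2h2be and 320 of Hist1h2bc. The H2B sum in tumour 1 thus rests largely on these genes and does not describe each H2B gene.

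Set against their variants in counts, not per length, the H3 family differed most between tumours. The H3f3 variants exceeded cluster H3 genes 1150-fold in tumour 1, on 65 cluster counts, and 16.9-fold and 28.1-fold in tumours 2 and 3. Variant H2A exceeded cluster H2A 73.6, 28.2 and 41.1-fold. Variant H1 exceeded cluster H1 19.2, 17.1 and 15.1-fold, a mean of 17.1 ± 2.06 (SD, n = 3), so the H1 ratio varied least of the 3.

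Few cluster genes were measured well one by one. A filter on low counts (edgeR's filterByExpr, which here needs a gene to pass in all 3 libraries) kept 12710 genes, 8 of the 69 cluster genes and 10 of the 17 variants. Of the other 61 cluster genes, 8 had 0 counts in every tumour and 53 had some counts, up to 4.60, 4.10 and 6.04 CPM in tumours 1, 2 and 3. Most cluster genes are near-copies of each other. Of all 50-base windows of their annotated transcripts, the length of a read, a median of 55.0% occurred in the transcript of another gene. More than 50% were shared in 36 of 69 genes. Counts of single cluster genes are therefore uncertain, and sums over a family rest on firmer ground.

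Hist2h2aa2 (chromosome 3, 96239749 to 96240276), an H2A gene, was at 2.26, 52.2 and 21.5 CPM in tumours 1, 2 and 3. Per kilobase of transcript it was at 4.27, 98.9 and 40.7 CPM, the highest mean level of the cluster genes on that scale. All its 50-base windows are shared. Its inverted copy Hist2h2aa1 (96245497 to 96246082) was given 69.9, 0 and 95.1 estimated counts. Together the pair was at 3.27, 52.2 and 27.5 CPM, so tumour 1 was the lowest by that sum too.

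Hist1h1c (chromosome 13, 23738808 to 23740367), a linker H1 gene with 8.54% of its windows shared, was at 11.3, 33.3 and 21.9 CPM. The H4 gene Hist1h4i was at 2.02, 22.1 and 14.6 CPM. The H4 gene Hist1h4h, at 0.448, 23.2 and 10.7 CPM, was thus 51.9 times as high in tumour 2 as in tumour 1, on 31.4 and 187 estimated counts. The linker H1 gene Hist1h1e was at 0.607, 3.23 and 4.19 CPM. The last cluster gene past the filter, Hist1h2al, is annotated as a pseudogene and was at 0.448, 1.49 and 2.86 CPM. In these genes tumour 1 was lowest by CPM. With library totals the log2 difference of tumour 1 in Hist1h1c was −0.40 in place of −1.26.

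The H2A gene Hist3h2a and the H2B gene Hist1h2bc were even across tumours, in contrast to the rest. Hist3h2a was at 4.58, 4.10 and 4.70 CPM, a mean of 4.46 ± 0.318 (SD, n = 3). Hist1h2bc was at 4.63, 3.36 and 3.62 CPM, a mean of 3.87 ± 0.670. They were the only members past the filter that did not differ between libraries beyond counting noise (chi-square test of counts against scaled library totals, Benjamini-Hochberg adjusted over all genes past the filter, adjusted p = 0.803 and 0.0882). That test compares these libraries, not conditions, and called 94.2% of all genes. It called 6 of the 8 cluster genes and all 10 variants that passed the filter. With library totals Hist3h2a lay higher in tumour 1 than in the others by 0.90 on the log2 scale, compared with 0.06 here and −0.03 with DESeq2 size factors. For Hist1h2bc these values were 1.24, 0.40 and 0.31. The median of all genes with library totals was 0.96. Of the windows of Hist3h2a and Hist1h2bc, 31.5% and 30.6% are shared, so their counts depend on how reads were divided.

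The highest H3 genes of the clusters did not pass the filter. Hist1h3c had 1.59, 33.4 and 57.2 estimated counts, or 0.0289, 4.10 and 3.62 CPM. Hist1h3h, with 93.9% of its windows shared, had 18.0, 17.4 and 73.2 estimated counts, or 0.260, 2.11 and 4.64 CPM. Both were lowest in tumour 1 by CPM.

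Counted by size, 4 of the 8 cluster genes past the filter were at least 4-fold below both other tumours in tumour 1 (Hist2h2aa2, Hist1h4i, Hist1h4h and Hist1h1e), where 8.21% of all genes were. None of the 8 was at least 4-fold above, against 6.05% of all genes. The median log2 difference of these 8 genes from the mean of the other tumours was −2.27 in tumour 1, compared with 0.11 for all genes past the filter. It was −1.46 with library totals, against 0.96 for all genes, and −1.21 with all libraries thinned to the smallest, and in each of these 3 cluster genes were at least 4-fold below. Their median SD of log2 CPM was 1.36, against 0.72 for all genes, and was 0.42 without tumour 1, where no value of all genes is given. The highest and lowest tumours were at least 4-fold apart in 5 of the 8 and at least 2-fold apart in 6, against 29.5% and 65.6% of all genes. None of the 8 was 4-fold above or below both others in tumour 2, where 0.252% and 0.59% of all genes were, or in tumour 3, where 0.0787% were above and 0.0787% below. At 2-fold, Hist2h2aa2 and Hist1h4h were above both others in tumour 2, as were 5.43% of all genes. At 2-fold no histone gene past the filter stood apart in tumour 3, where 0.865% of all genes were above and 1.35% below.

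**Figure D2:**
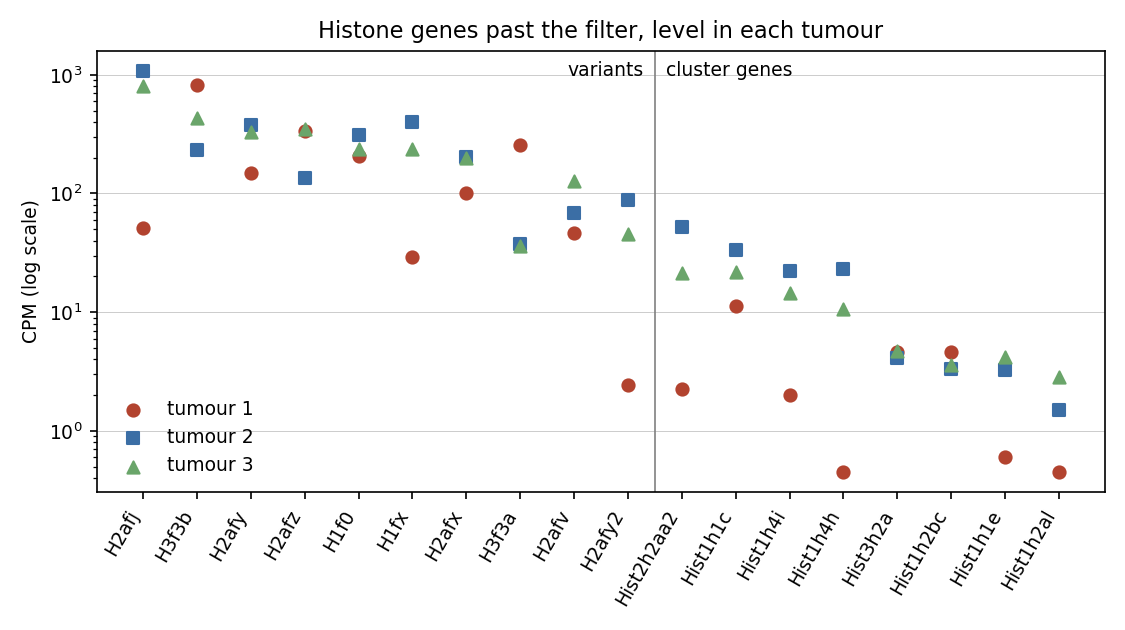
Level of the 18 histone genes past the filter, in CPM on a log axis, with a circle, square and triangle for tumours 1, 2 and 3 and genes ordered by mean level within variants (left) and cluster genes (right). Tumour 1 lies far below the others in H2afj, H1fx, H2afy2 and several cluster genes, above them in H3f3a and H3f3b, and beside them in Hist3h2a and Hist1h2bc.

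The share of cluster CPM held by genes with AATAAA near an annotated end differed between tumours. The 15 genes with AATAAA near an annotated end, 2 of them past the filter, were at 23.6, 47.7 and 38.2 CPM in sum. The 37 genes that have at least 16 bases after the stop codon but no AATAAA near the end were at 13.5, 142 and 97.3 CPM. The former therefore held 61.3% of cluster CPM in tumour 1, against 23.3% and 24.9% in tumours 2 and 3. A further 15 genes have under 16 annotated bases after the stop codon and were at 0.925, 14.3 and 14.8 CPM. Split by the stem-loop motif instead, the shares were closer between tumours. The 33 cluster genes with the motif, some of which also have AATAAA, held 62.9%, 70.1% and 64.4% of cluster CPM in tumours 1, 2 and 3. Without the 15 genes that have AATAAA, the variants exceeded the rest of the cluster genes by a log2 ratio of 7.07, 4.23 and 4.60, an alternative chosen after the values were seen.

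Hist2h2be, an H2B gene with the AATAAA shown above, no window shared with another gene and no match to either form of the stem-loop motif in its 2192 annotated bases after the stop codon, was among the 5 of 61 cluster genes with a count that were highest in tumour 1. It had 318, 8 and 9 counts, or 4.60, 0.994 and 0.572 CPM, and did not pass the filter. It was named after its values were seen. It held 11.9% of cluster CPM in tumour 1 and 0.485% and 0.373% in tumours 2 and 3. Hist1h1c alone held 29.3%, 16.2% and 14.3%.

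**Figure D3:**
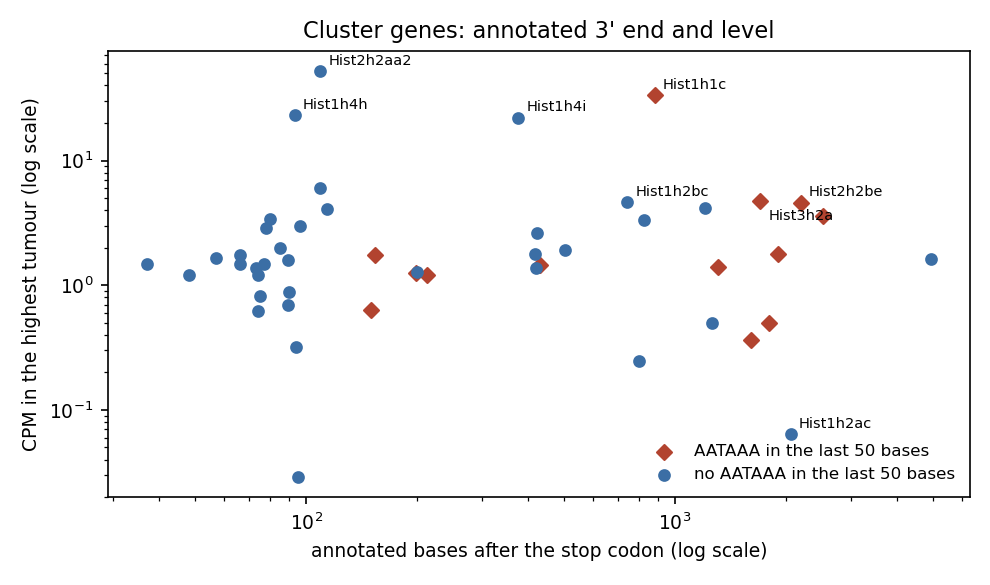
Each point is a cluster gene with at least 16 annotated bases after the stop codon and a count in some tumour, placed by the number of those bases (x, log scale) and by its CPM in the tumour where it is highest (y, log scale), with red diamonds for AATAAA in the last 50 bases of a transcript. Hist2h2aa2 and Hist1h4h are high with short ends of 109 and 93 bases, and Hist1h1c is high with 880 bases and AATAAA.

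Among the variants, H3f3a and H3f3b were highest in tumour 1, whereas H2afj, H1fx and H2afy2 were far lower there than in the others. H3f3a and H3f3b encode the same protein, the replacement H3 laid down at transcribed genes throughout the cell cycle. H3f3b (chromosome 11, 116021912 to 116027962) was at 826, 233 and 429 CPM in tumours 1, 2 and 3, and ranked 60th, 913th and 363rd by CPM of the 12710 genes. H3f3a (chromosome 1, 180800832 to 180813943) was at 256, 37.7 and 36.1 CPM. It was the only variant past the filter at least 4-fold above both other tumours in tumour 1. Both genes were highest in tumour 1 under each of the 3 scalings tried. Together they held 54.0% of variant CPM in tumour 1 against 9.22% and 16.7%.

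The level of H3f3a depends on how reads were divided. Of its 50-base windows 27.1% occur in another gene, and 16.3% of all its windows occur in the predicted lincRNA gene Gm17275, which was at 6.35, 16.7 and 79.1 CPM. With the non-member genes that share at least 5% of its windows added, H3f3a came to 264, 54.3 and 115 CPM, so that tumour 1 stood 4.86 and 2.29-fold above the others by that sum. H3f3c, annotated as a processed pseudogene, had 193, 0 and 0 counts, with 73.8% of its windows shared.

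H2afj (chromosome 6, 136808244 to 136810074) encodes H2A.J, a mammalian H2A variant described in senescent cells and in luminal epithelium. It was at 51.2, 1080 and 797 CPM, ranking 3159th, 152nd and 170th by CPM. It was 21.1 times as high in tumour 2 as in tumour 1 and held 2.56%, 36.8% and 28.6% of variant CPM. Per kilobase of transcript H2afj was at 28.0, 590 and 435 CPM, the highest mean of all members on that scale, and H3f3b at 329, 92.8 and 171 CPM. The order of these genes thus turned between tumour 1 and the others. Only 7.00% of the H2afj windows are shared. The neighbouring cluster gene Hist4h4 (136801553 to 136804415), not past the filter, had 3, 29 and 47 counts, and was also lowest in tumour 1 by CPM. So were 41 of the 61 cluster genes with a count, Hist4h4 among them. Of these 61 genes 53 did not pass the filter, and no share of all such genes is given. Among the 12710 genes past the filter, 5282 were lowest in tumour 1. Hist4h4 falls outside the naming rule given below.

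H2A.Z, found beside active promoters, is encoded by H2afz and H2afv. H2afz was at 333, 136 and 346 CPM and H2afv at 46.8, 68.0 and 128 CPM. Tumour 3 was highest in both, as in no other variant past the filter. H2afz was the only variant at least 2-fold below both others in tumour 2, as were 7.14% of all genes. Of its windows 30.9% occur in Tmcc1, which was at 23.3, 24.98 and 27.5 CPM. With library totals H2afz was higher in tumour 1 than the others by 1.48 on the log2 scale, compared with 0.62.

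H2afx, whose product is phosphorylated around DNA breaks, was at 101, 204 and 199 CPM. Tumours 2 and 3 differed little and tumour 1 stood 2.03-fold below tumour 2. With library totals its log2 difference of tumour 1 from the others was −0.14.

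MacroH2A, which carries a large macrodomain and marks silent chromatin such as the inactive X chromosome, comes from H2afy and H2afy2. H2afy was at 150, 376 and 328 CPM, and H2afy2 at 2.44, 88.6 and 45.7 CPM. H2afy2 had the widest range of the variants past the filter, 36.3-fold between tumours 1 and 2, on 169 and 713 estimated counts. Aifm2, which shares 8.75% of its windows, was at 10.2, 54.6 and 36.1 CPM.

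Of the linker histone variants, H1f0, which accumulates in cells that stop dividing, was the most even variant, at 205, 313 and 238 CPM, a mean of 252 ± 55.3 (SD, n = 3). Its log2 difference of tumour 1 from the others was −0.41 and turned to 0.45 with library totals. H1fx was at 28.9, 402 and 235 CPM, 13.9 times as high in tumour 2 as in tumour 1. Its transcript has the highest GC content of the variants past the filter, 71.3%.

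**Figure D4:**
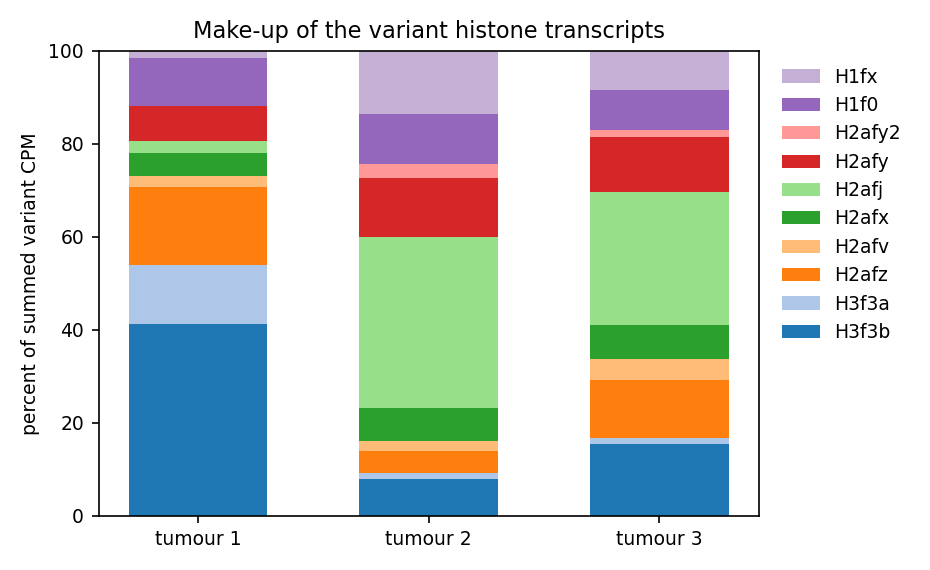
Stacked bars give the percent of summed variant CPM that each of the 10 variants past the filter held in tumours 1, 2 and 3. The H3f3a and H3f3b segments fill 54.0% of the bar of tumour 1, and H2afj fills 36.8% and 28.6% of the bars of tumours 2 and 3.

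Of the 10 variants past the filter, 3 (H2afj, H1fx and H2afy2) were at least 4-fold below both others in tumour 1 and 1 (H3f3a) at least 4-fold above. The shares of all genes were 8.21% and 6.05%. The median log2 difference of the variants in tumour 1 was −0.999, against 0.11 for all genes, and with library totals −0.14 against 0.96. Their median SD was 0.84 against 0.72, and 0.43 without tumour 1, where no value of all genes is given. The highest and lowest tumours were at least 4-fold apart in 4 of them and at least 2-fold apart in 9, against 29.5% and 65.6% of all genes. In all, 7 were lowest and 2 highest in tumour 1, and of all 12710 genes 5282 were lowest and 5986 highest there. Over these 10 genes the difference of tumour 1 was lower at higher transcript GC content (Spearman rho −0.78), as it did more loosely over 12343 annotated genes past the filter (rho −0.30). Genes are not independent replicates, and the part of GC content in the differences was not tested. The 7 variants not past the filter were H3f3c, which had counts in tumour 1 alone, and 6 with 0 counts in all tumours. These were the pseudogene H2afy3 and the germ-line genes H2afb1, H2afb2, H2afb3, H1foo and H1fnt. The 3 germ-line genes inside the clusters (Hist1h1t, Hist1h2aa and Hist1h2ba) had 0 counts as well. A count of 0 allows up to 0.0434, 0.373 and 0.191 CPM in tumours 1, 2 and 3, counting error only. Cenpa, the centromeric H3 variant outside the symbol rule, was at 115, 174 and 222 CPM.

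Of the 18 genes past the filter on a list for histone mRNA processing, 12 were highest and 6 lowest in tumour 1. Of all 12710 genes, 5986 were highest and 5282 lowest there. At least 2-fold above both others in tumour 1 were 5 of the 18, and 0 were below, where 22.1% of all genes were above and 20.7% below. The share above was thus near that of all genes. The list is not confined to histone mRNA, since Papola, a poly(A) polymerase gene, is in it and was among the 5. The median log2 difference of the 18 genes in tumour 1 was 0.95, against 0.11 for all genes. Slbp, the stem-loop binding protein, was at 74.9, 27.0 and 51.7 CPM and was named after its values were seen. By level the list was led by Srrt (250, 270 and 306 CPM), which links the cap-binding complex to 3′-end processing, the cleavage scaffold gene Sympk (125, 308 and 208 CPM) and the poly(A) polymerase gene Papola (129, 23.6 and 39.3 CPM). The cleavage factor gene Cstf2 had the largest range, at 39.7, 4.72 and 4.96 CPM.

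Of 12 genes for histone gene transcription, 3 were at least 2-fold above and 1 below in tumour 1, against 22.1% and 20.7% of all genes, so the share above was near that of all genes. Npat, the coactivator of the histone loci that cyclin E and Cdk2 activate, was at 26.02, 3.23 and 6.55 CPM. E2f1, a transcription factor of the G1 to S transition, was at 50.7, 336 and 158 CPM, Ccne1 (cyclin E) at 29.0, 64.8 and 47.6 CPM, and Cdk2 at 26.5, 34.8 and 51.9 CPM. Npat was thus highest and E2f1 lowest in tumour 1.

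The chaperones that carry histones to DNA had 8 of 24 genes at least 2-fold above and 2 below in tumour 1, against 22.1% and 20.7% of all genes. Supt16, a subunit of the FACT complex, had the largest range, at 109, 8.82 and 12.6 CPM. The most abundant were Npm1 (692, 242 and 545 CPM), Nap1l1 (260, 344 and 380 CPM) and Rbbp4 (176, 223 and 292 CPM).

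The S phase genes lay close together in sum under TMM scaling. The 25 genes summed to 1640, 1617 and 1930 CPM, with 4 at least 2-fold above and 3 below in tumour 1, against 22.1% and 20.7% of all genes, and a median log2 difference of 0.14 against 0.11. Pcna was at 149, 110 and 178 CPM, Tk1 at 137, 126 and 184 CPM and Mcm3 at 92.8, 145 and 169 CPM. Their log2 differences of tumour 1 from the others were 0.09, −0.15 and −0.75. With library totals these became 0.95, 0.70 and 0.10, against a median of 0.96 for all genes, so the evenness depends on the scaling. Single genes still went far apart, such as the DNA polymerase gene Pole at 39.4, 3.36 and 9.41 CPM. The cluster histones summed to 38.5, 205 and 153 CPM over the same libraries, also under TMM scaling.

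The RNAs past the filter that lack a poly(A) tail were also low in tumour 1. Of the 14 listed RNAs in the files 6 passed the filter, and all 6 were at least 4-fold below both others in tumour 1, where 8.21% of all genes were. Of the RNAs not past the filter, Scarna2 was also lowest in tumour 1 by CPM, on 8, 88 and 91 counts. The rest had 8 counts or fewer in every tumour, such as Rny3 with 2, 8 and 0, and did not share 1 direction. The ribosomal RNA symbol Rn18s-rs5 was at 1370, 111410 and 72784 CPM, or 0.200%, 7.87% and 6.68% of counts. Rn7s1 and Rn7s2, copies of the signal recognition particle RNA with near-equal values that can share reads, were at 14.1, 794 and 292 CPM each. Rn7sk, the RNA that holds the elongation factor P-TEFb inactive, was at 7.23, 313 and 203 CPM, and was named after its values were seen. Summed, the 14 RNAs were at 1409, 113391 and 73618 CPM, nearly all of it Rn18s-rs5, with 2, 4 and 5 of them at 0 counts in tumours 1, 2 and 3. The part of this difference in the level of cluster histones was not tested.

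**Figure D5:**
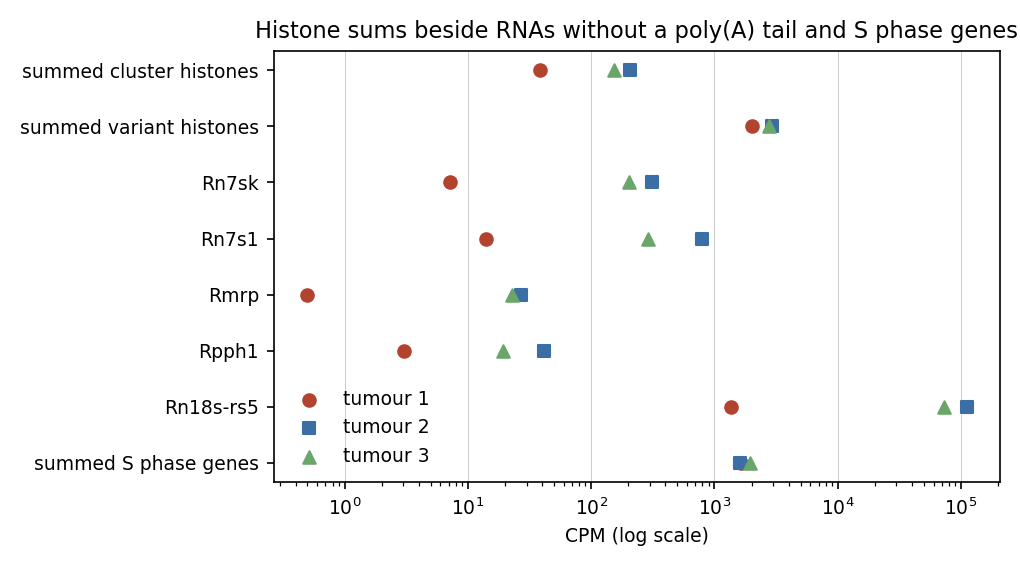
CPM on a log axis of the summed cluster and variant histones, 5 RNAs without a poly(A) tail and the summed S phase genes, with a circle, square and triangle for tumours 1, 2 and 3. The cluster histones (38.5, 205 and 153 CPM) and the 5 RNAs have tumour 1 at the left, whereas the points of the S phase sum (1640, 1617 and 1930 CPM) lie together, with the circle of tumour 1 under the square of tumour 2.

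The libraries differed in more than histones. Estimated counts per library were 47449153, 11388769 and 17147394. The 6 markers of mammary epithelium summed to between 1614 and 2367 CPM. The 6 skeletal muscle markers summed to 4.54, 45187 and 19240 CPM, the 3 basal epithelial markers to 208, 17.3 and 11.6 CPM, the 3 endothelial markers to 117, 881 and 293 CPM, the 4 fibroblast markers to between 2260 and 4518 CPM, the 3 fat markers to between 127 and 254 CPM, the 3 macrophage markers to between 121 and 260 CPM, the 3 red blood cell markers to 106, 1485 and 835 CPM, and the 4 T cell markers to between 1.76 and 9.57 CPM. No listed marker was at 0 counts in any tumour. The sums of muscle, endothelial, red blood cell and T cell markers were lowest in tumour 1, as the cluster genes were. The macrophage sum was lowest there too, but only through Csf1r (82.5, 230 and 203 CPM), since Adgre1 and Cd68 were highest in tumour 1. Not every endothelial and T cell marker followed its sum. Kdr was lowest in tumour 3 (19.2, 33.6 and 15.6 CPM), and the endothelial sum was mostly Pecam1 in tumours 2 and 3 (56.4, 775 and 231 CPM). Cd8a was highest in tumour 1, on 19, 1 and 2 counts, and the T cell sum was mostly Cd4 in tumour 2 (0.824, 7.21 and 3.62 CPM). The part of these markers in the histone levels was not tested.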

How the data were processed

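The deposited values are estimated counts (salmon's NumReads) for each gene symbol, per the file headers, unscaled for depth or length. The submitters' processing notes also name STAR, SAMtools, Picard and build mm10. For versions, annotation, strand and gene summing, the sources used here give nothing, so reads of antisense partners cannot be told apart.

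Counts were rounded and kept by filterByExpr of edgeR 4.0.16 (R 4.3.3; minimum count 10, minimum total 15). Filtered totals of 46753275, 11144546 and 16808052 were scaled by TMM factors of 1.48, 0.722 and 0.936. Log2 CPM used a prior count of 2. A gene lay apart in a tumour at 4-fold or more above or below both others. Libraries were compared by a chi-square test (scipy 1.17.1, statsmodels 0.14.6, threshold 0.05). With 1 group there is no test of conditions, and where nothing shows separate donors the spread may be technical. Calls were tested on simulated data. Lengths, GC content, motifs and 50-base windows came from GENCODE M21 transcripts, with the longest transcript for length. Alternatives covered scaling (DESeq2 1.42.0 size factors, library totals), filters, prior counts, folds, thinning, class definitions and leaving out each tumour. Members and lists were chosen with earlier results of these data known.

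Genes were named by a rule. It takes the 10 highest cluster genes, the highest of each family, every cluster gene past the filter that lay apart by 4-fold, every variant past the filter, Cenpa, and of each context list the 3 highest genes and the 1 with the largest range.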

Additional observations from a re-analysis of the deposited data

How the results depend on the processing

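With library totals alone the variants' median log2 difference was −0.14 in tumour 1 and −0.19 in tumour 2, where it was 0.52 before, and their median SD was 1.33. With no filter, 61 cluster genes were counted, 33 at least 4-fold below both others in tumour 1, 1 above, and 13 apart in tumour 2 or 3, and 2 variants were above in tumour 1. With a mean CPM of at least 1 in place of the filter, these cluster counts were 23, 17, 1 and 2. At 2-fold, 2 cluster genes and 1 variant were apart in tumour 2 or 3. At 8-fold, 2 cluster genes were below and 0 variants above in tumour 1. For the changed filters, for 8-fold and for the runs below that leave out a tumour, no share of all genes is given. These counts are therefore not read as a trait of histone genes. Thinned to the smallest library, the median SD of cluster genes was 0.77. Per kilobase, the mean log2 ratio of variants to cluster genes was 3.34. The cause of these moves was not tested.

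Leaving out each tumour in turn, the median log2 difference in tumour 1 ranged from −2.63 to −1.97 in cluster genes and from −1.06 to −0.81 in variants. In tumour 2 it ranged from 0.24 to 1.97 and from 0.13 to 0.81, and in tumour 3 from −0.24 to 2.63 and from −0.13 to 1.06. The lowest values in tumours 2 and 3 came without tumour 1. The median SD ranged from 0.42 to 1.86 and from 0.43 to 1.11. From 0 to 4 cluster genes and from 0 to 4 variants were apart in tumour 2 or 3, and from 4 to 5 and 3 were below in tumour 1. The log2 ratio ranged from 4.01 to 4.94, and variants stayed above cluster genes in each alternative run. It was 5.20 with classes set by the stem-loop, and, in alternatives chosen after seeing the data, 5.30 without cluster genes that have AATAAA near an end and 3.59 without H3f3a, H3f3b and H2afj. No paired analysis was possible because the study has 1 group. Depth limits single cluster genes, of which 17 had under 10 counts in every tumour.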
